A study of Mus musculus with 12 samples.

Results

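The data described here concern 33 genes of glycolysis and of the response to low oxygen, followed in the atrioventricular canal (AVC) and in the primary ventricle (labelled LV) of mouse embryos. Probes were taken by gene symbol from the platform's probe-to-gene table, and for a gene with several probes the one with the highest mean over the 12 arrays was used. A probe was found for 30 of the 33 genes, out of 19057 genes measured, and Hk2, Gpi1 and Eno1 had no probe of that symbol. The 4 groups were AVC at E9, LV at E9, AVC at E10 and LV at E10 (E, embryonic day), with 3 arrays each. The labels give no strain, genotype or treatment. RNA came from dissected, unsorted tissue and was profiled on Illumina Mouse WG-6 v2 BeadChips, on which a bead-bound probe reports the brightness (intensity) of the RNA it captures. The sources used here do not say whether the 3 arrays of a group came from separate embryos, litters or pools, so a p-value here covers the variation from array to array, which may be technical.

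Glycolysis splits glucose into pyruvate with a small yield of ATP and needs no oxygen. Glucose enters through transporters of the Slc2a family, is trapped by hexokinase, and pyruvate is either reduced to lactate by lactate dehydrogenase or sent to the mitochondria, a step that pyruvate dehydrogenase kinases restrain. When oxygen is scarce, prolyl hydroxylases of the Egln family no longer mark the transcription factor subunit HIF1A for destruction, and HIF1A with its partner ARNT switches on glucose transporters, glycolytic enzymes and genes such as Vegfa and Adm. The early embryonic heart beats before it has coronary vessels and relies strongly on glucose before its mitochondria mature.

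The labelled tissues were checked against marker genes. All 6 AVC markers listed (Tbx2, Tbx3, Bmp2, Rspo3, Msx1 and Twist1) had a higher mean in AVC than in LV at both ages. Of these, 6 passed the test at E10 and 5 at E9 (not Tbx3, log2 difference 1.97, adjusted p = 0.188). They were chosen with earlier results of these data known, so their direction is not an independent check of the labels. Their summed intensity was 3600 to 4586 in AVC against 602 to 846 in LV at E9, and 3706 to 5451 against 390 to 599 at E10. Nppa, the atrial natriuretic peptide gene of chamber myocardium, was lower in AVC by 1.73 on the log2 scale at E9 and by 1.35 at E10, and the 12 chamber and working myocardium markers, which include it, summed to 121550 to 139874 in AVC and 163714 to 164307 in LV at E9. Of these 12, 8 were lower and 4 higher in AVC at E9 (Myl7 0.47, Myh6 0.66, Tnni3 0.81 and Gja5 0.19 on the log2 scale, none called), and Nppa was the 1 that passed at E9. The array LV E10 replicate 1 stood apart from the other LV E10 arrays, and results that rest on it are given with and without it. In whole tissue, fewer cells of a type and less RNA per cell cannot be told apart, and precision is limited by having 3 arrays in a group.

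Of the 30 genes, 26 exceeded background on all 12 arrays, background being the size of the most negative intensity of an array (22.4 to 29.6). Ldhb and Slc16a3 were above it on 11 arrays, and Slc16a1 and Bnip3 on none, so the values of these last are not interpreted. The linear model of limma, with all 4 groups fitted together and Benjamini-Hochberg adjustment over all 19057 genes, called 1 gene of the 30 in 1 comparison: Ddit4 was higher in LV at E10 than at E9. In that comparison 2.37% of all genes were called. Between AVC and LV, 0 of 30 were called at E9 (4 had an unadjusted p under 0.05), where 1.02% of all genes were called. At E10 0 of 30 were called (3 unadjusted, with Bnip3 among them), where 2.3% of all genes were. For E10 against E9 in the AVC 0 of 30 were called (6 unadjusted) and 0.551% of all genes. For the interaction of tissue and age 0 of 30 were called (2 unadjusted) and 0.0315% of all genes. The unadjusted counts are given without the share of all genes and are not read as results.

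**Figure D1:**
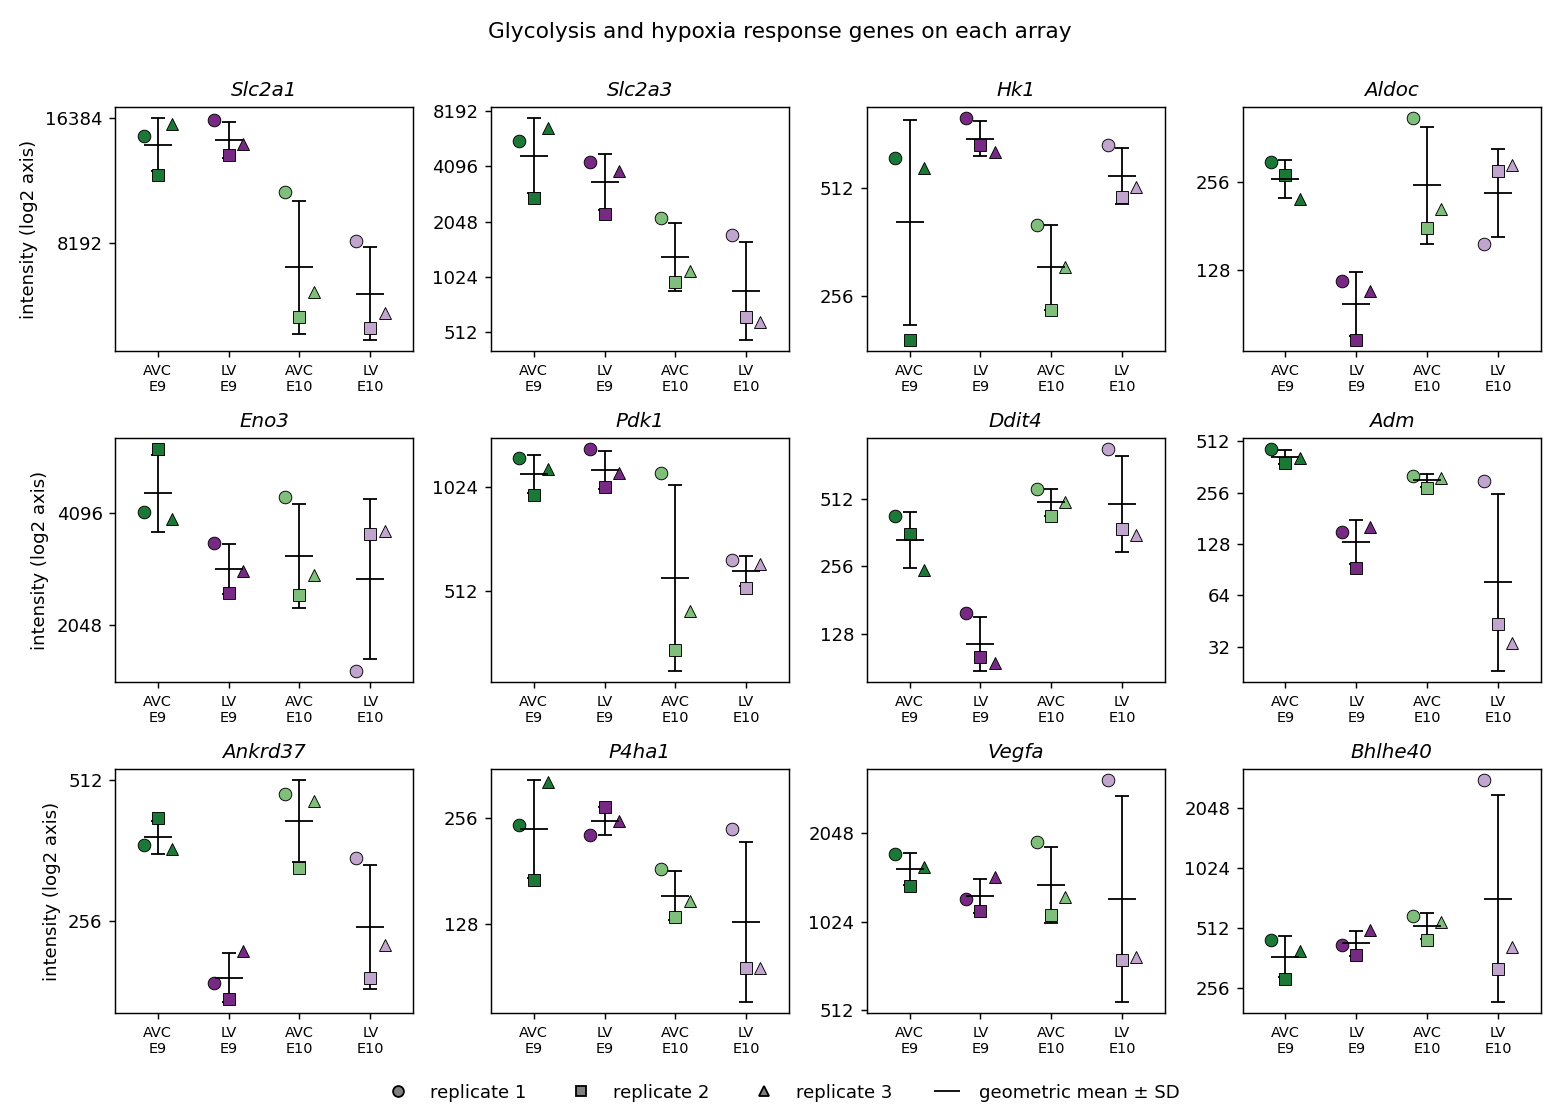
Deposited intensity of 12 of the genes on each of the 12 arrays, on log2 axes that do not start at 0 and differ between panels. Points are arrays (circle, square and triangle for replicates 1, 2 and 3), and the bar and whiskers are the geometric mean ± SD of the 3 arrays of a group. Slc2a1 and Slc2a3 sat lower at E10 than at E9 in both tissues, Ddit4 was lowest on the 3 LV E9 arrays, and the circle of LV E10 stood far above the square and the triangle for Adm, Vegfa and Bhlhe40.

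Slc2a1 encodes GLUT1, the main basal glucose carrier of embryonic tissue. Its intensity was 14811, 11985 and 15878 in AVC and 16224, 13335 and 14187 in LV at E9, and 10911, 5447 and 6246 in AVC and 8313, 5137 and 5580 in LV at E10. Every E10 array was below every E9 array of the same tissue, while AVC and LV overlapped at both ages. The mean went from 14225 ± 2012 (SD, n = 3) to 7535 ± 2951 in AVC, a log2 difference of -0.97 (SE 0.28, adjusted p = 0.179). In LV it went from 14582 ± 1485 to 6343 ± 1721, a log2 difference of -1.23 (SE 0.28, adjusted p = 0.0593). Neither passed the threshold of 0.05. Without AVC E10 replicate 1, the highest of its group, the AVC difference was -1.28 and passed (adjusted p = 0.0307), in a fit that called 2.44% of all genes. Without LV E10 replicate 1 the LV difference was -1.44 and passed as well (adjusted p = 0.0180), in a fit that called 13.8% of all genes. In 19 alternative fits, which include leaving out each array, the AVC difference passed in 1 (highest adjusted p 0.491). The LV difference passed in 4 (highest adjusted p 0.204).

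Slc2a3 encodes GLUT3, a carrier with a high affinity for glucose. It read 5639, 2749 and 6625 in AVC and 4347, 2252 and 3886 in LV at E9, and 2150, 963 and 1109 in AVC and 1742, 618 and 582 in LV at E10. The ages did not overlap in either tissue, although replicate 2 of AVC E9 was more than 2-fold below both other arrays of its group, as it was for 4.68% of the 8340 genes that exceeded background on all arrays. The log2 difference between E10 and E9 was -1.83 in AVC (SE 0.55, adjusted p = 0.198) and -1.97 in LV (SE 0.55, adjusted p = 0.0975), a 3.55-fold and a 3.93-fold lower geometric mean that did not pass. Without LV E10 replicate 1 the LV difference was -2.49 and passed (adjusted p = 0.0194). Of the 19 alternative fits, the LV difference passed in 3 and the AVC difference in 0. Neither transporter passed between tissues. For Slc2a1 the 95% interval of AVC minus LV ran from -0.67 to 0.59 at E9 and from -0.42 to 0.85 at E10. For Slc2a3 AVC minus LV was 0.48 (95% interval -0.77 to 1.72) at E9 and 0.62 (-0.62 to 1.87) at E10, intervals that leave room for a tissue difference of over 3-fold.

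The promoter of Slc2a1 is shown because its transcript had the smallest adjusted p among the genes lower at E10. It is the 250 bases before the start of transcription in RefSeq (GRCm38.p6, chr4:119108495-119108744, plus strand), written 5′ to 3′, with the hypoxia response element cores ACGTG and GCGTG in capitals wherever they occur on either strand (CACGT and CACGC when read from the opposite strand).
Slc2a1: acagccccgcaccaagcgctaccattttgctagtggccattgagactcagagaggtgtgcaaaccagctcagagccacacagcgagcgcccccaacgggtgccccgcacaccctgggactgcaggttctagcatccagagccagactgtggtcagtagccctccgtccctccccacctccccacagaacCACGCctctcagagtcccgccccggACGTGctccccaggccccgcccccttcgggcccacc
This window held 1 match to each core, 36 and 61 bases before the start.

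Hk1, the hexokinase that commits glucose to the cell, was the 1 enzyme whose AVC arrays lay below all LV arrays at both ages. It read 618, 193 and 580 in AVC and 798, 671 and 645 in LV at E9, and 403, 234 and 309 in AVC and 675, 484 and 515 in LV at E10. AVC E9 replicate 2 was more than 2-fold below both other arrays of its group. The log2 difference of AVC minus LV was -0.77 (SE 0.42, adjusted p = 0.591) at E9 and -0.84 (SE 0.42, adjusted p = 0.447) at E10, and neither passed. Without AVC E9 replicate 2 the E9 difference was -0.23. A second, dimmer Hk1 probe, above background on 10 arrays, had the same sign at E10 (-0.61) and the opposite sign at E9 (0.55) and between ages in both tissues.

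Aldoc, an aldolase best known from brain, read 300, 270 and 223 in AVC and 117, 73 and 108 in LV at E9. At E10 it read 423, 177 and 207 in AVC and 157, 280 and 294 in LV. LV E9 was thus the low group, with no overlap with AVC E9 or with LV E10, and the E10 tissues overlapped. AVC minus LV was 1.43 on the log2 scale at E9 (SE 0.37, adjusted p = 0.142) and 0.09 at E10, and E10 minus E9 in LV was 1.26 (SE 0.37, adjusted p = 0.112). The interaction was -1.34 (SE 0.53, unadjusted p = 0.0329, adjusted p = 0.937). Without LV E10 replicate 1 the LV difference was 1.55 and passed (adjusted p = 0.0346). The LV difference passed in 2 of the 19 alternative fits (highest adjusted p 0.322).

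Eno3, the muscle enolase, read 4122, 6056 and 3941 in AVC and 3391, 2498 and 2863 in LV at E9, where the tissues did not overlap, and 4521, 2459 and 2787 in AVC and 1543, 3600 and 3652 in LV at E10, where they did. The E9 difference was 0.67 (SE 0.37, adjusted p = 0.599). Aldoa, the muscle and general aldolase, read 12934, 15496 and 12288 in AVC against 12083, 10260 and 10723 in LV at E9, a log2 difference of 0.30 (adjusted p = 0.704) with no overlap, and 14063, 9200 and 10200 against 8323, 13408 and 13233 at E10. Pfkl, the liver-type phosphofructokinase, read 6868, 3972 and 6168 in AVC at E9 and 5034, 2561 and 3465 at E10, which overlapped, with a log2 difference of -0.64 (SE 0.26, adjusted p = 0.353). In LV it read 5766, 5548 and 5199 at E9 and 3977, 4371 and 4220 at E10, with no overlap and a log2 difference of -0.39 (adjusted p = 0.471).

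None of the other enzymes passed. Between ages in AVC, 12 of the 13 enzymes of the list had a log2 difference below 0, from -0.64 to 0.14. Of the genes above background on all arrays, 51.7% were below 0 there. In LV it was 8 of the 13 enzymes, from -0.48 to 1.26, beside 59.6% of the genes above background on all arrays. Pfkm, the muscle-type phosphofructokinase, had the smallest SE of the 30 (0.11) and ran from 1875 to 2737 over the 12 arrays, with log2 differences of 0.14 and 0.15 between ages in AVC and LV. Pfkp, the platelet type, lay lower at E10 without overlap in both tissues (1577 to 1830 against 994 to 1569 in AVC, 1401 to 2171 against 1129 to 1364 in LV), with differences of -0.50 (adjusted p = 0.350) and -0.48 (adjusted p = 0.231), and a second probe moved the same way. Gapdh, the dehydrogenase widely used as a reference transcript, ran from 14141 to 20271, and triosephosphate isomerase (Tpi1) from 13870 to 21656. Phosphoglycerate kinase (Pgk1) ran from 7408 to 15123 and phosphoglycerate mutase (Pgam1) from 1244 to 2426. For Pfkl, Pfkm, Pfkp, Aldoa, Tpi1, Gapdh, Pgk1, Pgam1, Ldha and Ldhb the log2 difference between tissues stayed between -0.22 and 0.37 at E9 and between -0.24 and 0.10 at E10. The 95% intervals of these 10 genes reached from -0.64 to 0.91 at E9 and from -0.83 to 0.65 at E10. These ranges hold for the probes used, and some other probes above background on all arrays lay outside them. A second Pfkl probe gave 0.47 at E9 and 0.45 at E10, and a second Pfkp probe -0.38 and -0.42. One Tpi1 probe gave -0.21 and -0.41, while further Pfkm, Tpi1 and Pgam1 probes ran from -0.08 to 0.39. Dimmer Pfkm and Pgk1 probes gave -0.59 and 0.41 at E9 and -0.67 and -0.32 at E10.

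Ldha, the lactate dehydrogenase subunit that favours lactate formation, read 16978, 21094 and 18316 in AVC and 21410, 18690 and 20790 in LV at E9, and 19029, 10159 and 13830 in AVC and 12062, 15766 and 18421 in LV at E10. E10 lay below E9 without overlap in LV (log2 difference -0.42, adjusted p = 0.386) and overlapped it in AVC (-0.43, adjusted p = 0.523). Ldhb, the subunit typical of oxidative adult heart, was near background on its only probe in every group, from 23.4 to 50.02. A low transcript and a weak probe cannot be told apart there. The lactate exporter Slc16a3 was also dim, at 109, 108 and 97 in AVC and 97, 101 and 93 in LV at E9 against 107, 33 and 63 and 25, 63 and 69 at E10. Its difference was -0.79 in AVC (adjusted p = 0.597) and -1.03 in LV (adjusted p = 0.275), and 1 of the LV E10 values was not above background.

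Pdk1, a kinase that restrains pyruvate dehydrogenase, was also lower at E10 on most arrays. It read 1241, 965 and 1152 in AVC and 1312, 1019 and 1121 in LV at E9, then 1124, 346 and 448 in AVC and 628, 521 and 610 in LV at E10. The 3 LV E10 arrays were below all LV E9 arrays, whereas AVC E10 replicate 1 stayed at the E9 level and was more than 2-fold above both other arrays of its group, as it was for Aldoc and for 0.875% of the 8340 genes. The log2 difference was -0.99 in AVC (SE 0.37, adjusted p = 0.311) and -0.97 in LV (SE 0.37, adjusted p = 0.198). Without AVC E10 replicate 1 it was -1.50 in AVC (adjusted p = 0.00643) and both tissues passed, the LV with an adjusted p of 0.0234 in a fit that called 3.22% of all genes. Each tissue passed in only 1 of the 19 alternative fits, with adjusted p up to 0.852 in AVC and 0.763 in LV. Pdk3, another kinase of the same step, read 1435, 1672 and 1341 in AVC and 1254, 941 and 1008 in LV at E9, without overlap, and 1845, 803 and 1237 against 1045, 1882 and 1820 at E10. Its interaction of tissue and age was -0.80 (SE 0.46, adjusted p = 0.937). The Pdk1 promoter window in RefSeq (GRCm38.p6, chr2:71872974-71873223, plus strand) held 1 core, shown in the same way as for Slc2a1.
Pdk1: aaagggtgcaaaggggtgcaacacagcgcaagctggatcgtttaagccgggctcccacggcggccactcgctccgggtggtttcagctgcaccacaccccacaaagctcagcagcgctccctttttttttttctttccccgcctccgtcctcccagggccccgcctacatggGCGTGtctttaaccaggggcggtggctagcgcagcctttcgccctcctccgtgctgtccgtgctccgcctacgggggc

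**Figure D2:**
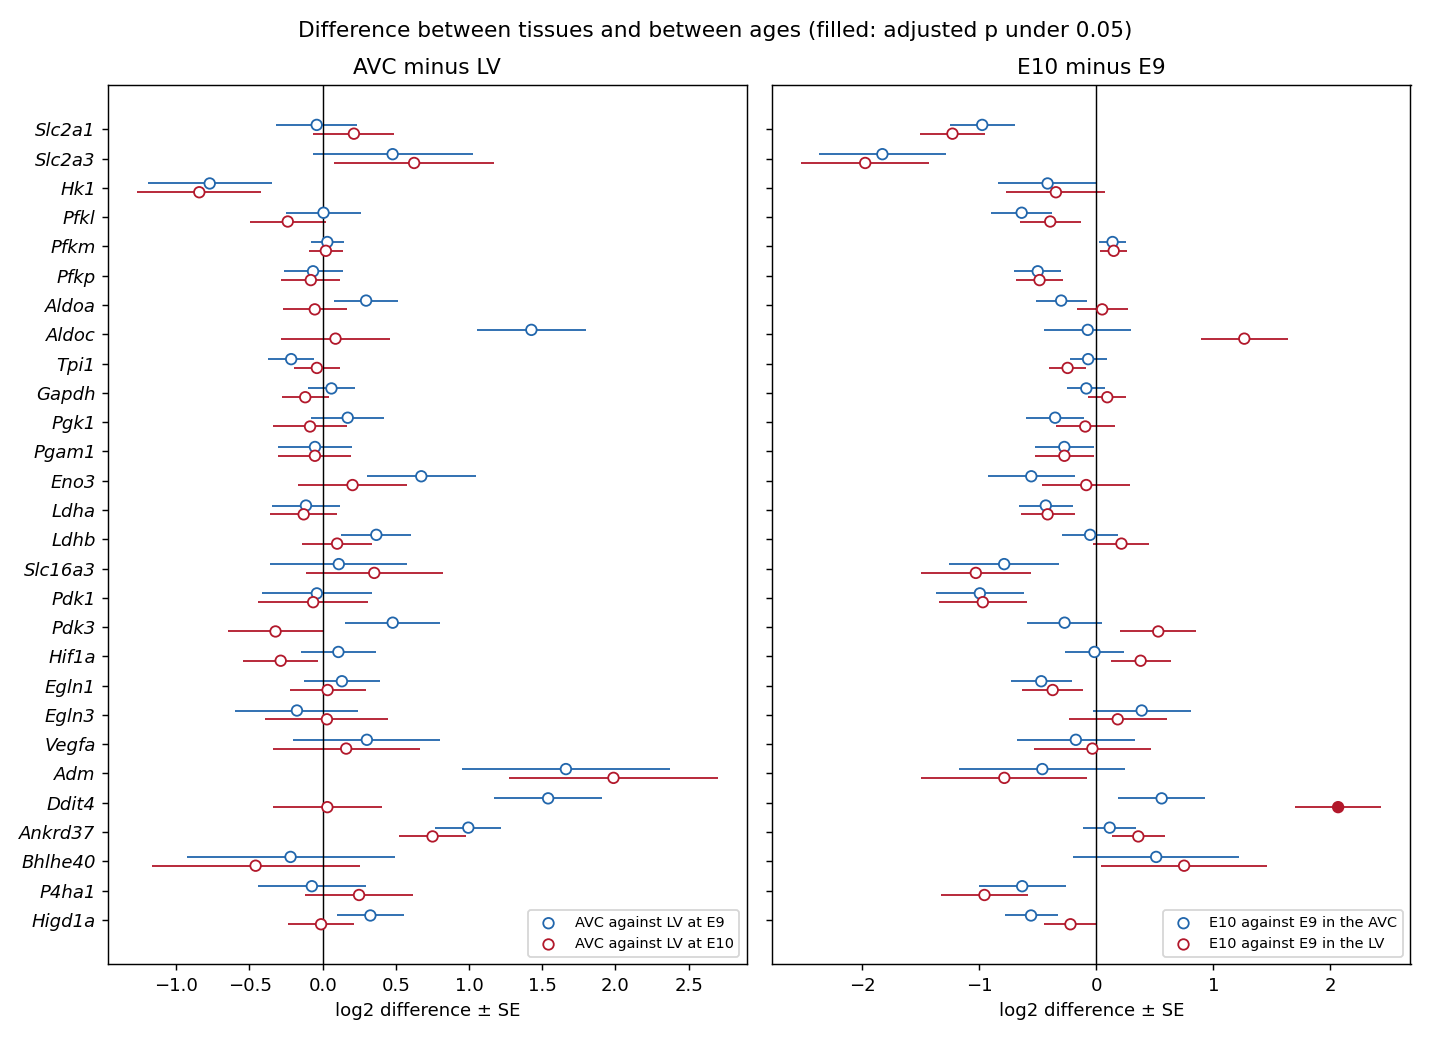
Log2 difference ± SE from the limma fit for the 28 genes above background on at least 11 arrays, AVC minus LV on the left and E10 minus E9 on the right, with open points for an adjusted p of 0.05 or more. The only filled point is Ddit4 in LV between ages, at 2.07. Slc2a1, Slc2a3 and Pdk1 lie at or below -0.97 in both tissues, and no glycolytic enzyme has a filled point.

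Hif1a, the oxygen-regulated transcription factor subunit, read 428, 418 and 378 in AVC and 452, 357 and 335 in LV at E9, and 584, 269 and 416 in AVC and 422, 550 and 512 in LV at E10, so the groups overlapped throughout. E10 minus E9 was -0.02 in AVC and 0.38 in LV (adjusted p = 0.471), and these are transcript values that do not measure the protein. Egln1, the main prolyl hydroxylase, ran from 73 to 190 over all arrays and was lower at E10 in LV without overlap (132, 114 and 118 against 102, 96 and 83), a log2 difference of -0.37 (adjusted p = 0.474). Egln3, a hydroxylase that is itself induced by HIF1A, read 217, 164 and 220 in AVC and 266, 222 and 192 in LV at E9, and 320, 213 and 258 in AVC and 550, 177 and 171 in LV at E10. The 550 came from LV E10 replicate 1.

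Among the hypoxia targets, Ddit4 encodes REDD1, a stress-induced brake on mTOR signalling and a known HIF1A target. It read 430, 357 and 245 in AVC and 158, 101 and 95 in LV at E9, and 566, 429 and 494 in AVC and 849, 376 and 352 in LV at E10. LV E9 was the low group and overlapped neither AVC E9 nor LV E10, and the other groups overlapped each other. In LV the mean went from 118 ± 35 (SD, n = 3) to 526 ± 280, 4.19-fold on the geometric scale, and the log2 difference of 2.07 (SE 0.37, 95% interval 1.22 to 2.91) passed with an adjusted p of 0.0363. In AVC the difference between ages was 0.56 (SE 0.37, adjusted p = 0.639). The interaction, which tests the difference between tissues directly, was -1.51 (SE 0.52, unadjusted p = 0.0194, adjusted p = 0.892), so the rise is not shown to differ between LV and AVC. At E9, AVC minus LV was 1.54 (SE 0.37, adjusted p = 0.113), and at E10 it was 0.03.

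The rise of Ddit4 in LV did not come from LV E10 replicate 1 alone, since the other LV E10 arrays also lay above all LV E9 arrays, and without replicate 1 the log2 difference was 1.66 with an adjusted p of 0.0129. The call itself was close to the threshold. It was lost, at adjusted p from 0.0525 to 0.126, when any of 8 arrays was left out (AVC E9 replicate 1, LV E9 replicates 1, 2 and 3, AVC E10 replicates 2 and 3, LV E10 replicates 2 and 3), and also when only the 2 LV groups were fitted (adjusted p = 0.150), while the log2 difference stayed between 1.66 and 2.30 over all 19 alternatives.

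Ankrd37, a small ankyrin repeat gene induced by HIF1A, lay higher in AVC than in LV at both ages. It read 371, 423 and 365 in AVC and 189, 174 and 220 in LV at E9, and 477, 331 and 461 in AVC and 349, 193 and 227 in LV at E10. All AVC E9 arrays were above all LV E9 arrays, and at E10 only LV E10 replicate 1 reached the AVC range. AVC minus LV was 0.99 (SE 0.23, adjusted p = 0.0961) at E9 and 0.75 (SE 0.23, adjusted p = 0.155) at E10. Without LV E10 replicate 1 the E9 difference, which that array does not enter except through the shared spread, passed (adjusted p = 0.0279) and the E10 difference was 0.996 and passed (adjusted p = 0.0282). Over the 19 alternative fits the E9 difference passed in 2 and the E10 difference in 1.

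Adm encodes adrenomedullin, a vasoactive peptide needed for vascular development. It read 459, 380 and 408 in AVC and 150, 93 and 161 in LV at E9, and 322, 273 and 310 in AVC and 300, 43 and 34 in LV at E10. AVC was above LV on every array at E9, and at E10 on all but LV E10 replicate 1, which lay within the AVC range. AVC minus LV was 1.66 (SE 0.71, adjusted p = 0.417) at E9 and 1.99 (SE 0.71, adjusted p = 0.233) at E10. Without LV E10 replicate 1 the differences were 1.66 (adjusted p = 0.0151) at E9, in a fit that called 2.21% of all genes, and 2.98 (adjusted p = 0.00232) at E10, in a fit that called 3.83%. In that fit Adm also fell between ages in LV, by 1.78 on the log2 scale (adjusted p = 0.00645). Each of these Adm differences passed in only 1 of the 19 alternative fits.

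P4ha1, a collagen prolyl hydroxylase subunit, read 246, 171 and 325 in AVC and 229, 275 and 251 in LV at E9, and 184, 134 and 148 in AVC and 238, 96 and 95 in LV at E10. The E10 arrays were mostly the lower ones, with LV E10 replicate 1 again at the E9 level. E10 minus E9 was -0.63 in AVC (adjusted p = 0.584) and -0.96 in LV (SE 0.37, adjusted p = 0.198), and without LV E10 replicate 1 the LV difference was -1.40 and passed (adjusted p = 0.0148). The LV difference passed in only 1 of the 19 alternative fits. A second P4ha1 probe, above background on all arrays, gave -0.77 in AVC and -1.36 in LV. Bhlhe40, a transcriptional repressor induced by low oxygen, read 447, 281 and 393 in AVC and 419, 373 and 499 in LV at E9, and 588, 444 and 549 in AVC and 2845, 317 and 412 in LV at E10. Its difference between tissues at E10 was -0.46 with all arrays and 0.53 without LV E10 replicate 1, so its sign was set by that array.

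Vegfa, the main angiogenic growth factor, read 1732, 1352 and 1569 in AVC and 1219, 1110 and 1449 in LV at E9, and 1906, 1083 and 1238 in AVC and 3101, 759 and 778 in LV at E10, with LV E10 replicate 1 the highest of the 12 arrays. Higd1a, a mitochondrial protein induced by hypoxia, ran from 219 to 274 in AVC at E9 and from 115 to 200 at E10, without overlap (log2 difference -0.56, adjusted p = 0.355), and from 158 to 244 in LV. The values of Vegfa and of Egln3 were singled out after they had been seen.

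The promoter windows of the hypoxia targets with the largest differences are shown because these genes are named as HIF1A targets and their transcripts did not move together (RefSeq, GRCm38.p6, Ddit4 at chr10:59951771-59952020, minus strand, Ankrd37 at chr8:45999851-46000100, minus strand, Adm at chr7:110627407-110627656, plus strand, P4ha1 at chr10:59323046-59323295, plus strand), with the cores in capitals as above.
Ddit4: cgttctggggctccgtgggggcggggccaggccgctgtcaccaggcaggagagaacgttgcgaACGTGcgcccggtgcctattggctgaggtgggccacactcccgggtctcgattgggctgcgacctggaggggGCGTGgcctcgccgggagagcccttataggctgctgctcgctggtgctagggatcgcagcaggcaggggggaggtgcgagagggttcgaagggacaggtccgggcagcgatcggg
Ankrd37: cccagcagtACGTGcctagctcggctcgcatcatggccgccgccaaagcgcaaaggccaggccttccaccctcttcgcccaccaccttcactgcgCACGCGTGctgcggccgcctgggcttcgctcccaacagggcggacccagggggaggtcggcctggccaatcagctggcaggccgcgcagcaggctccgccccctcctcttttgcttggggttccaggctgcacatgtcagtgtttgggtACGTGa
Adm: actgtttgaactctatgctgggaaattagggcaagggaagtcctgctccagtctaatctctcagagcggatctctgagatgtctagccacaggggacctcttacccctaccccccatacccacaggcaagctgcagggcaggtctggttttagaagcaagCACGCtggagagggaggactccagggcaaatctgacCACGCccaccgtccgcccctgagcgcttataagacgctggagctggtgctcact
P4ha1: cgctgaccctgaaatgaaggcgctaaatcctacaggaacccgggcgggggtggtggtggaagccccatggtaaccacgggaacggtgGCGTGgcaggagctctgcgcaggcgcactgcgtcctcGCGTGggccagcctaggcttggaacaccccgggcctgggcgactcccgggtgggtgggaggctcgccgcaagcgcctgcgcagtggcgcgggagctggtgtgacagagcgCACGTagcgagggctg
Ddit4 and Adm held 2 matches each, Adm both on the opposite strand, and Ankrd37 held 4, of which the pair in the middle overlap.

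A promoter was in the RefSeq table for 28 of the 30 genes, and where a gene has several starts the most upstream was taken. At least 1 core stood in 24 of the 28 windows (85.7%), against 4049 of 6810 genes that exceeded background on all arrays and have a window (59.5%) and 7675 of 17492 protein-coding genes (43.9%). ACGTG was in 15 of the 28 (53.6%), against 23.3% and 17.6%, and GCGTG in 18 (64.3%), against 47.5% and 33.7%. CACGTG reads the same on both strands and so counts as a pair of overlapping ACGTG matches, as in 5 of the windows. The windows of Aldoa, Hk1, Tpi1 and Vegfa held no match. A match is a description of the letters and not a binding site, and these genes were listed for a known relation to hypoxia.

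**Figure D3:**
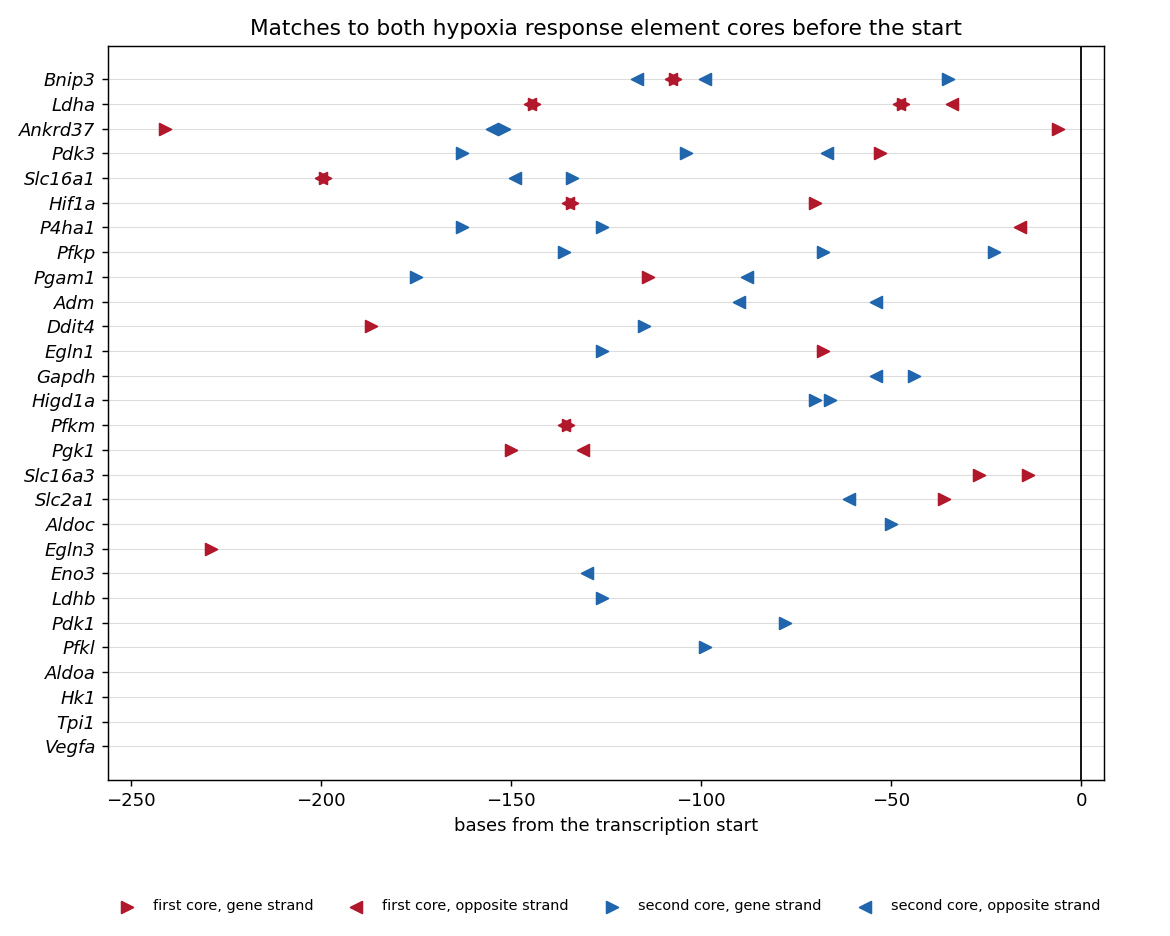
Position of each match to ACGTG (red, first core) and GCGTG (blue, second core) in the 250 bases before the transcription start for 28 genes, with right-pointing triangles for the strand of the gene and left-pointing triangles for the opposite strand. A star shape or touching triangles mark overlapping matches on both strands. Bnip3 and Ldha held 5 matches each, and 4 genes held none.

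Across the ages, the AVC values of the list leaned downward. In AVC 24 of the 30 genes had a log2 difference below 0 (80.0%), with a median of -0.33. Among those exceeding background on all arrays it was 21 of 26 (80.8%), against 51.7% of 8340 genes with a median of -0.01. The 3 AVC E10 arrays differed: replicate 1 lay a median of 0.59 above the other AVC E10 arrays on the log2 scale over these 26 genes and replicate 2 lay 0.52 below, and without replicate 1 the median age difference was -0.54. In LV 19 of 30 were below 0, with a median of -0.23, and 16 of 26 (61.5%) against 59.6% of the 8340 genes, which is near the background. The groups did not overlap between ages for 5 of 26 genes in AVC (Slc2a1, Slc2a3, Pfkp, Adm and Higd1a, all lower at E10), where 23.2% of the 8340 genes did not overlap. In LV they did not overlap for 10 of 26 (Pfkm, Aldoc and Ddit4 higher at E10, Slc2a1, Slc2a3, Pfkl, Pfkp, Ldha, Pdk1 and Egln1 lower), where 34.1% did not.

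Markers of other cell types and of the cell cycle also differed between the ages. The summed intensity of the 10 endothelial and endocardial markers was 4023 to 5628 in AVC E9 and 6798 to 8181 in AVC E10, and 4903 to 5800 in LV E9 and 7447 to 9127 in LV E10, with Kdr above background on no array. In LV, Pecam1, Tek, Tie1, Emcn, Eng and Plvap were higher on every E10 array than on any E9 array. Cdh5, Nfatc1 and Npr3 overlapped between the ages there. The 9 cushion mesenchyme markers summed to 3634 to 5041 in AVC at E9 and 6601 to 9266 at E10, and the 12 cell cycle markers to 19965 to 21884 and 15763 to 18648. The 8 epithelial and hepatic endoderm markers summed to 3323 to 5020 in AVC at E9 and 1401 to 2557 at E10, and to 1547 to 3459 and 1005 to 4119 in LV, with Epcam, Alb and Foxa2 above background on no array. Krt8, a keratin of simple epithelia among them, read 2983, 1950 and 3484 in AVC and 2264, 997 and 1537 in LV at E9, and 1706, 438 and 535 in AVC and 1188, 430 and 474 in LV at E10. Like Slc2a1, Slc2a3 and Pdk1, Krt8 and Krt18 were highest on replicate 1 of each E10 group. Cdh1, Afp and Ttr were highest on replicate 1 in LV E10 but lowest on it in AVC E10 (Cdh1 23 against 51 and 31). Krt8 and Krt18 were the brightest genes of this list in AVC at E9. Krt18 and Cdh1 were also below all their AVC E9 values on every AVC E10 array. Afp and Ttr did not fall in this way. In AVC, Afp read 24, 72 and 13 at E9 and 17, 412 and 319 at E10. Ttr read 166, 430 and 109, then 88, 542 and 235. The part of these cell types in the lower transporter and Pdk1 values was not tested.

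Between the tissues, 20 of 30 genes were higher in AVC at E9 (median 0.11 on the log2 scale) and 16 of 30 at E10 (median 0.03), with Slc16a1 and Bnip3, above background on no array, counted both times. These counts depended on the scaling, since after quantile normalization they were 15 and 13 of 30. At E9 the tissues did not overlap for 8 of 26 genes (Aldoa, Aldoc, Eno3, Pdk3, Ankrd37, Ddit4 and Adm higher in AVC, Hk1 lower), where 27.0% of the 8340 genes did not overlap. At E10 they did not overlap for 1 of 26, Hk1, where 24.5% did not. At E9 the cushion mesenchyme markers summed to 3634 to 5041 in AVC and 1183 to 1775 in LV, and the 9 erythroid markers to 121300 to 132186 and 145436 to 180822, and their part in the E9 differences was not tested.

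LV E10 replicate 1 carried a pattern of its own among these genes. It was more than 2-fold above both other LV E10 arrays for 7 of 26 genes (Slc2a3, Vegfa, Egln3, Ddit4, P4ha1, Adm and Bhlhe40), where 6.4% of the 8340 genes were. It was more than 2-fold below for 1 of 26, Eno3, near the share of 3.91% of the 8340 genes. Against the geometric mean of the other LV E10 arrays, Bhlhe40 and Adm were 7.87-fold and 7.85-fold higher, Vegfa 4.04-fold, Egln3 3.16-fold and Slc2a3 2.91-fold. Of the 12 glycolytic enzymes of the list above background on all arrays, 11 were below the mean of the other LV E10 arrays, from a ratio of 0.43 for Eno3, 0.55 for Aldoc and 0.57 for Pgam1 through 0.71 for Ldha and 0.74 for Gapdh to 0.93 for Pfkl, and Hk1 was above it at 1.35. Hif1a was at 0.80. No share of all genes below that mean is given beside the 11 of 12, so this count is not read as a result.

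**Figure D4:**
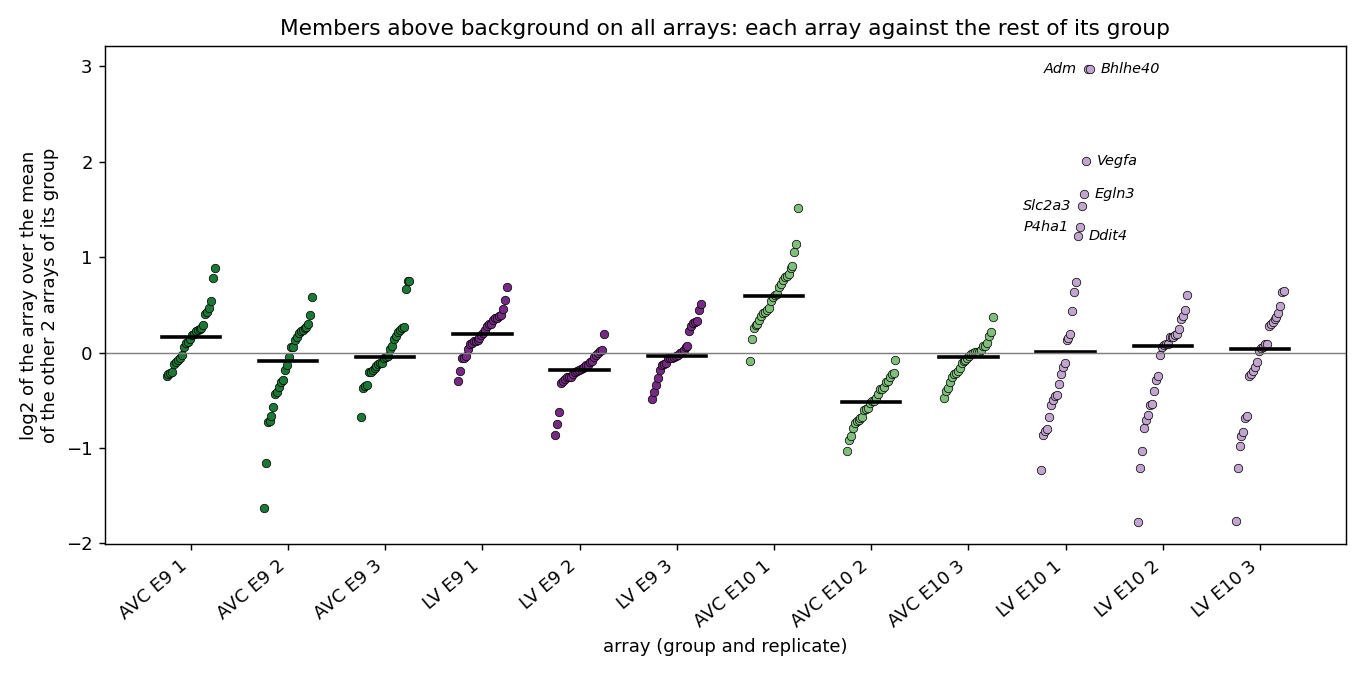
Each of the 26 genes above background on all arrays, as the log2 of 1 array over the mean of the other arrays of its group (points), with the median over the genes as a bar, for the 12 arrays. Most points lie within 1 of 0. On LV E10 replicate 1 the median is 0.01 but the points reach 2.98, with 7 hypoxia-linked genes named above 1.

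Of the other hypoxia response genes in a list of 43, 32 exceeded background on all arrays, and 5 of these (Ndrg1, Angptl4, Tfrc, Flt1 and Narf) were also more than 2-fold higher on LV E10 replicate 1 and 2 more than 2-fold lower (Fam162a, ratio 0.44, and Prelid2, 0.43). The shares of the 8340 genes were 6.4% higher and 3.91% lower. Of 14 other glycolysis and pyruvate genes above background on all arrays, 3 were more than 2-fold higher there: Pfkfb4 9.99-fold, Bpgm 5.01-fold and Eno2 4.89-fold. Both lists thus held genes that were higher and genes that were lower on this array. The erythroid markers moved on that array too, with 7 of 9 at their highest of all 12 arrays there (Hbb-y, Hba-x, Alas2, Klf1, Gata1, Slc4a1 and Epor). Alas2, the first enzyme of haem synthesis in red cells, read 10826 there against 5688 and 2327 on the other LV E10 arrays, and Klf1, the erythroid transcription factor, 5663 against 1715 and 934. The summed erythroid markers ran from 117717 to 203622 in LV E10 and each was above background on some array. Other markers set this array apart as well. The epithelial and hepatic endoderm markers summed to 4119 there against 1276 and 1005 (Ttr 1826 against 314 and 80). The chamber markers were mixed, with a sum of 152276 against 163675 and 155372. Gja5 (493 against 2291 and 2332) and Nppb (7094 against 12926 and 16079) were low, as were Myl3, Myl7, Myh6, Myh7, Tnni3, Irx4 and Hand1. On this array Gja5, Nppb and Myh7 lay within the LV E9 range (348 to 579, 4901 to 7323 and 875 to 1149). Myl3, Myl7, Myh6, Tnni3, Irx4 and Hand1 lay below that range. Nppa (28752 against 27200 and 24015), Myl2 (38853 against 26654 and 24031) and Actc1 (32668 against 29976 and 24726) were higher there. The cell cycle markers summed to 23690 on this array against 16961 and 17054, beside 23786 to 24708 in LV E9. The part of these cell types, and of the cell cycle difference, in the high hypoxia target values was not tested.

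Leaving out this array changed what was called. In LV between ages 6 of the 30 genes then passed, where 13.8% of all genes did: Ddit4 and Aldoc higher at E10, and Slc2a1, Slc2a3, Adm and P4ha1 lower. Between tissues at E10, Adm and Ankrd37 passed, where 3.83% of all genes did. At E9 Adm, Ankrd37 and Ddit4 passed, where 2.21% did. The LV E10 group then held 2 arrays.

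Of 35 other glycolysis and pyruvate genes, 0 passed in any of the 5 comparisons (4, 5, 4, 6 and 0 had an unadjusted p under 0.05), and 12 were above background on no array. The unadjusted counts have no share of all genes beside them and are not read as results. The smallest adjusted p was that of Hkdc1, a hexokinase-like gene, between tissues at E10. It read 35, 6 and 12 in AVC, near or below background, against 89, 81 and 104 in LV, a log2 difference of -2.72 (SE 0.58, adjusted p = 0.0557). Pkm, the pyruvate kinase gene, read 13306, 10432 and 13639 in AVC and 14099, 12455 and 13952 in LV at E9 against 9097, 6088 and 6758 and 9250, 8832 and 9184 at E10. Every E10 array was below every E9 array, and the log2 difference was -0.78 in AVC (SE 0.15, adjusted p = 0.0695) and -0.57 in LV (SE 0.15, adjusted p = 0.0899). Without AVC E10 replicate 1, Pkm passed in both tissues and Hkdc1 between tissues at E10.

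Other genes of this list had higher values at E10. Pdk4, a pyruvate dehydrogenase kinase like Pdk1, read 114, 165 and 85 in AVC and 100, 69 and 66 in LV at E9, and 228, 179 and 206 in AVC and 158, 165 and 142 in LV at E10, without overlap between ages in either tissue. Its log2 difference was 0.80 in AVC (adjusted p = 0.207) and 1.004 in LV (SE 0.24, adjusted p = 0.0715), opposite in sign to that of Pdk1. Pdk2, a further kinase of this step and above background on 7 arrays, had differences of 2.13 (adjusted p = 0.240) and 2.45 (adjusted p = 0.106). Slc2a4, which encodes the insulin-responsive carrier GLUT4, read 43, 52 and 25 in LV at E9 and 68, 115 and 94 at E10, a difference of 1.24 (SE 0.31, adjusted p = 0.0768), opposite in sign to Slc2a1 and Slc2a3. Hkdc1, Pkm, Pdk4, Pdk2 and Slc2a4 were named after their values had been seen.

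Of 43 other hypoxia response genes, 3 were higher in AVC than in LV at E10, where 2.3% of all genes were called. In LV 1 was lower at E10 than at E9, near the background share, since 2.37% of all genes were called there. In the other 3 comparisons 0 passed (14, 8 and 5 with an unadjusted p under 0.05 for the tissues at E9, the ages in AVC and the interaction). No share of all genes is given for these unadjusted counts, so they are not read as results. Cxcr4, a chemokine receptor, read 126, 140 and 181 in AVC and 16, 25 and 27 in LV at E10, a log2 difference of 2.74 (SE 0.37, adjusted p = 0.0132) against LV values near background. Edn1, the endothelin peptide gene, read 507, 544 and 594 against 181, 222 and 241 (1.36, SE 0.20, adjusted p = 0.0160). Plod1, a collagen lysyl hydroxylase, read 150, 142 and 142 against 88, 73 and 88 (0.81, SE 0.11, adjusted p = 0.0142). Cited2, a competitor of HIF1A for its coactivators, read 3606, 4793 and 5139 in LV at E9 and 2012, 1259 and 1220 at E10 (-1.62, SE 0.25, adjusted p = 0.0260). In AVC it read 4949, 4071 and 5724 at E9 and 2992, 1994 and 2092 at E10, also without overlap (-1.07, adjusted p = 0.111).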

How the data were processed

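The AVC and primary ventricle of mouse embryos at E9 and E10 were profiled on 12 Illumina Mouse WG-6 v2 arrays, 3 per group. The authors deposited background-subtracted intensities on a linear scale for 45281 probes (34.7% of values under 0). Every array had the same mean of 386.3. The array medians ran from 7.72 to 11.1. No label, header or method names the program behind these values, and GeneSpring GX is named for the study's own comparisons. A probe with 1 gene symbol was listed for 34885 probes, several for 18 and none for 10378, which gave 19057 genes, each by its probe with the highest mean.

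Values under 1 were set to 1 and log2 transformed. That floor lies under the background limit of 22.4 to 29.6, so values below background can give large folds. Bnip3, above background on no array, had a log2 difference of 2.02 between tissues at E10. A single linear model across all genes was fitted to the 4 groups with limma 3.58.1 (R 4.3.3; lmFit, eBayes), without a block, for 5 two-sided contrasts, with Benjamini-Hochberg adjustment and calls at an adjusted p under 0.05. The fit was checked on simulated data. A value was above background where it exceeded the size of the most negative value of its array, which 36.7% to 41.0% of probes did.

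Values on each array were printed for called genes, and otherwise for the 6 largest differences of each contrast among genes above background on all arrays of a group. Vegfa, Egln3, Ldha, Egln1 and the uncalled genes of other lists were added after their values were seen. The members, lists and tests were chosen with earlier results of these data known. Promoters came from the RefSeq table for GRCm38.p6, and were searched in the 250 bases before the start. Alternatives were a floor of 16, quantile normalization, a filter on dim genes, all probes of a gene averaged, a trended robust prior, only the groups compared, the replicate number as a block, the 4-fold and p of 0.01 of the study, and leaving out each array. Depth does not apply to arrays.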

Additional observations from a re-analysis of the deposited data

How the results depend on the processing

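The number of genes of the 30 that passed depended on the setting. Between tissues at E9 it was 0, but 2 with only genes above background tested, 1 with the replicate block, and 0 to 3 when 1 array was left out; at E10 it was 0, and 0 to 2 when 1 array was left out. Between ages in AVC it was 0, and 0 to 2 when 1 array was left out. In LV it was 1, but 4 with only genes above background tested, 0 with only the groups compared, 3 with the replicate block (Ddit4, Slc2a1 and Slc2a3), and 0 to 6 when 1 array was left out. The interaction count was 0 under every alternative run. The share of all genes called moved between settings too. Without LV E10 replicate 1 it was 13.8% for the ages in LV, against 2.37% with all arrays. For the tissues at E10 it was then 3.83% against 2.3%. Without AVC E10 replicate 1 it was 2.44% for the ages in AVC, against 0.551%. The counts above are therefore not read as results about these genes alone.

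Of 32 log2 differences followed over up to 19 alternatives each, 567 values kept their direction and side of the threshold, 22 passed only in the alternative, 9 lost the threshold, and 4 changed sign. These were Bhlhe40 between tissues at E10 (-1.05 to 0.53 when 1 array was left out, 0.53 without LV E10 replicate 1), Slc16a3 between tissues at E10 (-0.11 to 0.79 when 1 array was left out, -0.06 without AVC E10 replicate 1 and -0.11 without LV E10 replicate 1), and Slc16a3 between ages in AVC (0.052 with all probes averaged). The cause was not tested.

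The replicate numbers only name the arrays: deviations of arrays with the same number correlated from -0.37 to 0.52 across groups, so the block was not used as a pairing. With 3 arrays a group, dim genes such as Slc16a3 and Ldhb lie close to background, and their order is not resolved.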
